A study of Homo sapiens with 6 samples.

Results

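The genes described here encode the heat shock proteins of the cytosol and the mitochondria, the cochaperones that work with them, 7 subunits of the chaperonin TRiC, and the heat shock factors HSF1 and HSF2. They were taken by symbol from a fixed list of 38 genes out of the 17448 genes listed in the expression table, by a rule that uses symbols alone. All 38 were listed and all 38 passed the filter on low counts, with at least 10 counts in every sample. The list is not confined to its 2 compartments, because HSPA13 encodes an HSP70 of the microsomes, and it leaves out the TRiC subunit CCT6A. Bulk RNA-seq was performed on HCC2814 cells, an epithelial line from a human lung squamous cell carcinoma (LUSC). The WT group was 3 samples of cells with non-targeting control guide RNA (sgCtrl). The MLST8-KO group was 3 samples of cells with guide RNA against MLST8, a subunit of the kinase complexes mTORC1 and mTORC2. Both groups grew in DMEM with fetal bovine serum and antibiotics and went through antibiotic selection, and the labels name no heat, drug or other stress. No cloning of single cells is described for this line, so the samples are selected populations. Protein blots of this line in the study carry numbered control guides and numbered MLST8 guides, and whether the sequenced samples are numbered by guide, culture or day is not stated, so the p-values measure only the spread between these samples, which may be technical. The comparison addresses which chaperone transcripts differ in LUSC cells after MLST8 loss.

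Chaperones hold unfolded or partly folded proteins and pass them from one machine to the next. HSP70 proteins grip exposed stretches of a client with an ATP-driven lid, J-domain proteins deliver the client, and exchange factors reopen the lid. HSP90 and its cochaperones finish the folding of kinases and steroid receptors, and AKT is among its clients. TRiC is a double ring with a folding chamber whose clients include actin, tubulin and proteins built of WD40 repeats, of which mLST8 is one. In mitochondria, HSPA9 pulls proteins through the inner membrane and HSPD1 with HSPE1 forms the folding chamber. HSF1 raises the inducible members of all these families during protein stress by binding repeats of the letters GAA and TTC, called heat shock elements.

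Heat shock elements were looked up in the promoters of the chaperone genes to show which of them carry the letters that HSF1 binds. The windows run from 250 bases before to 50 bases after each gene start (RefSeq, GRCh38.p14), and 34 of the 38 genes had one. FKBP4, HSPA14, HSF1 and CRYAB had no matched window. The motif of 3 repeats, GAANNTTCNNGAA on either strand, occurred in 7 of the 34 genes (20.6%) and in 166 of the 27305 genes in the promoter table (0.608%). The 7 genes were HSPA8, HSP90AA1, HSP90AB1, CHORDC1, DNAJA1, DNAJB6 and HSPD1. The shorter motif of 2 repeats, GAANNTTC, lies inside the longer motif and reads the same on both strands. It occurred in 14 of the 34 genes (41.2%) and in 8.21% of all genes in the table. Below, capitals mark the motif of 3 repeats in the first 4 sequences, the motif of 2 repeats in the next 3, and nothing in the last. HSPA8 (chr11:123062171-123062199) and HSP90AA1 (chr14:102087112-102087140) are shown on the minus strand and HSP90AB1 (chr6:44247823-44247851) on the plus strand, as the main HSP70 and HSP90 genes. CHORDC1 (chr11:90223084-90223112, minus strand) is shown because 3 copies of the longer motif overlap in it. HSPA1A (chr6:31815418-31815463) and HSPA1B (chr6:31827614-31827659), both on the plus strand, are shown because the copies are nearly identical here too. HSPB1 (chr7:76302472-76302517, plus strand) is the member with the higher level in MLST8-KO cells. BAG3 (chr10:119651270-119651369, plus strand) is one of the 2 clearest falls, and neither motif was found in its window. In GENCODE v29 the printed stretch lies within a UTR of 2 HSPA8 transcripts, 1 HSP90AA1 transcript and 1 CHORDC1 transcript that start farther upstream, within no UTR of HSP90AB1 although 3 of its transcripts span it, and within no transcript on the same strand for the others.
HSPA8: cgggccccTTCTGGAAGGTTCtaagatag
HSP90AA1: gagggttcTTCCGGAAGGTTCgggaggct
HSP90AB1: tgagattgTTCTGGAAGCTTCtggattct
CHORDC1: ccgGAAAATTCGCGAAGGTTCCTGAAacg
HSPA1A: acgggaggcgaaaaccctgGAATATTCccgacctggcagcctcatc
HSPA1B: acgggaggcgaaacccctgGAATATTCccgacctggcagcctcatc
HSPB1: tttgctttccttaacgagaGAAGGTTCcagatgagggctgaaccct
BAG3: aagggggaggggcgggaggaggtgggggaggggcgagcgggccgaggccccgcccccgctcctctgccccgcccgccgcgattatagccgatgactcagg

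Estimated counts summed to between 14381673 and 15744154 per sample, and the 38 chaperone genes took 1.71% to 2% of them. MLST8 itself (chr16:2204248-2209416 in GENCODE v29, GRCh38) was at 874, 827 and 842 counts in the WT samples (replicates 1 to 3, the order used throughout) against 396, 629 and 401 in the knockout samples. It was lower by 0.96 on the log2 scale (log2 fold change -0.96, SE 0.15, edgeR adjusted p = 0.00339), with the highest knockout level in replicate 2. The squamous markers TP63, SOX2, KRT5, KRT6A, KRT14 and DSG3 were all detected and held 1.16% to 1.74% of the counts in WT and 2.06% to 2.30% in MLST8-KO samples, with WT replicate 1 the highest WT sample. The epithelial markers EPCAM, CDH1, KRT8, KRT18 and KRT19 were also all detected. Summed, they held 0.0977% to 0.106% of the counts in WT and 0.0876% to 0.0917% in MLST8-KO samples. These markers did not move together. The log2 fold change was -0.47 for KRT8 and -0.86 for KRT18, but 0.67 for KRT19, 0.28 for CDH1 and 0.01 for EPCAM. The part of these markers in the results below was not tested. Leukocyte, fibroblast and endothelial markers each held at most 0.00754% in any sample. Liver markers held 0.0241% of the counts in MLST8-KO replicate 1 and at most 0.00064% elsewhere. In a bulk sample, fewer cells of a type and less RNA per cell cannot be told apart.

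The chaperone transcripts spanned about 3 orders of magnitude in TPM (a level scaled for gene length and depth). HSPB1, a small heat shock protein that keeps damaged proteins in solution, and HSPA8, the constitutive cytosolic HSP70, were the highest. In WT cells HSPB1 was at 2518 ± 690 TPM and HSPA8 at 2542 ± 176 TPM, which did not differ beyond their spread, and in MLST8-KO cells HSPB1 was at 3633 ± 105 TPM and HSPA8 at 2794 ± 160 TPM (n = 3 each). HSP90AA1, HSP90AB1 and HSPA1B were the only other members with a mean above 1000 TPM over the 6 samples, although HSPA1B was at 951 TPM in WT and 1283 TPM in MLST8-KO cells. A further 23 members lay between 100 and 1000 TPM, so that 28 of 38 exceeded 100 TPM. HSF2, HSPA1A, HSPA2, HSPA13 and HSPB8 lay under 20 TPM. HSPA2, an HSP70 best known from the testis, was the lowest member, with 2.26 ± 0.45 TPM in WT and 2.39 ± 0.30 TPM in MLST8-KO cells (mean ± SD, n = 3).

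**Figure D1:**
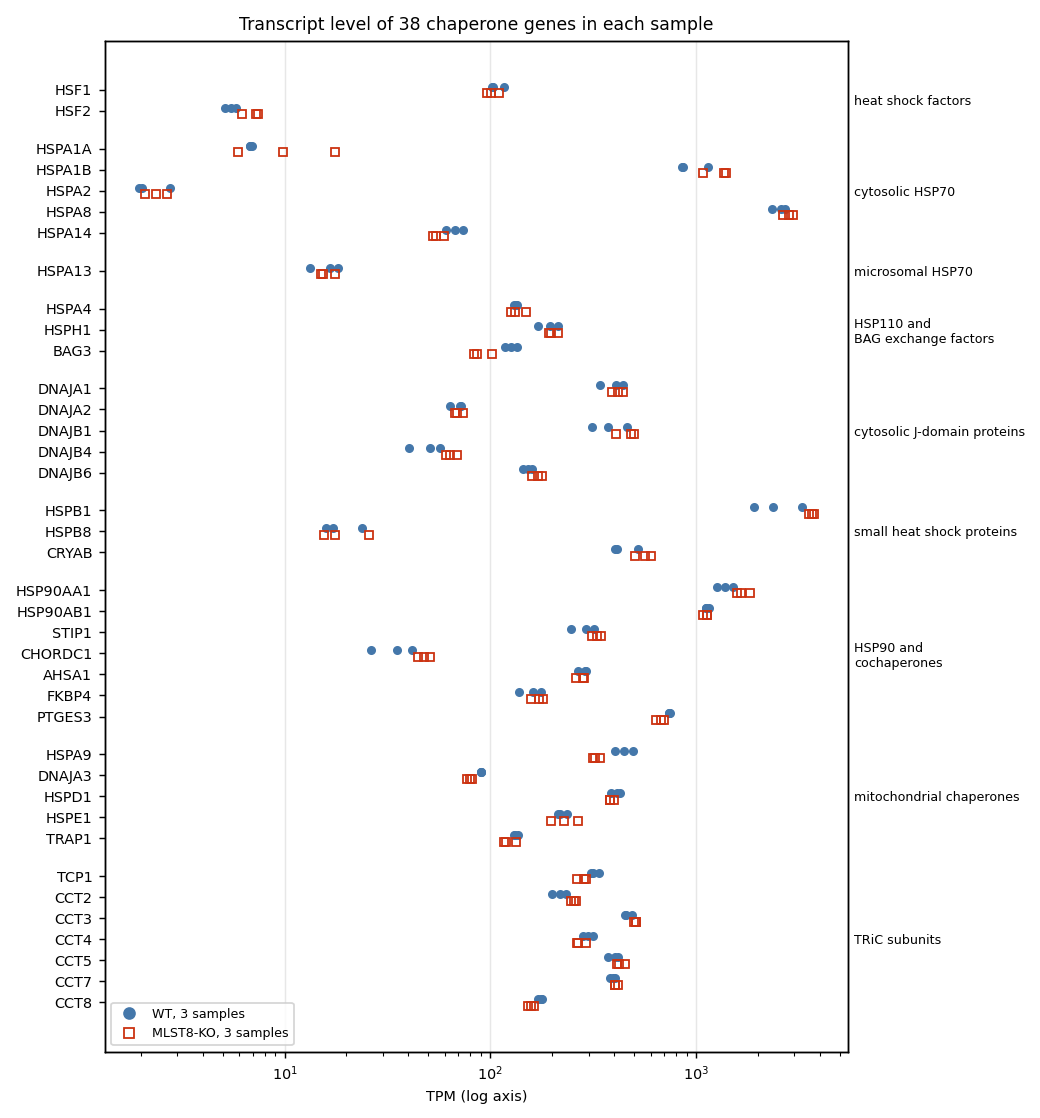
Transcript level of the 38 chaperone genes in TPM on a log axis, with each sample as a point (filled blue circles, 3 WT samples; open red squares, 3 MLST8-KO samples), grouped by role. Levels run from about 2 TPM for HSPA2 to a mean of 3633 TPM for HSPB1 in MLST8-KO cells, and for most genes the groups lie close together on this scale.

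MLST8-KO cells had lower transcript levels of HSPA9 and BAG3. With smaller differences, HSPA14, DNAJA3, PTGES3 and the TRiC subunits TCP1, CCT4 and CCT8 were also lower, and HSPB1 was higher. Of these, only HSPA9 and BAG3 kept their calls in all 6 fits that left out a sample. HSPB1, HSPA14 and CCT4 each kept theirs in 1 of the 6. Of the 38 genes, 8 were lower DEGs (21.1%), beside 15.7% of all 12951 genes tested. A single gene was a higher DEG (2.63%), beside 16.3% of all genes tested, and 29 genes did not pass the threshold. DEGs had an adjusted p under 0.05 in edgeR's quasi-likelihood test. The median log2 fold change was -0.05 over the 38 genes and 0.00 over all genes tested. Levels in CPM (counts relative to the TMM-scaled library size) were below every WT sample in all MLST8-KO samples for 12 genes and above for 3, beside 24.2% and 24.8% of all genes. The share of lower calls was therefore close to that of the whole transcriptome, and the share of higher calls was smaller. Scaling matters for this split. Of all DEGs, 51.0% were higher with TMM scaling, 62.0% with upper quartile scaling and 71.0% with limma on log2(TPM + 1), which shifted the median of all genes by 0.06 and 0.09. On the latter scale 6 of the 38 genes were higher and 3 lower, beside 21.5% and 8.76% of all genes. With upper quartile scaling 2 were higher and 5 lower, beside 19.7% and 12.0% of all genes.

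**Figure D2:**
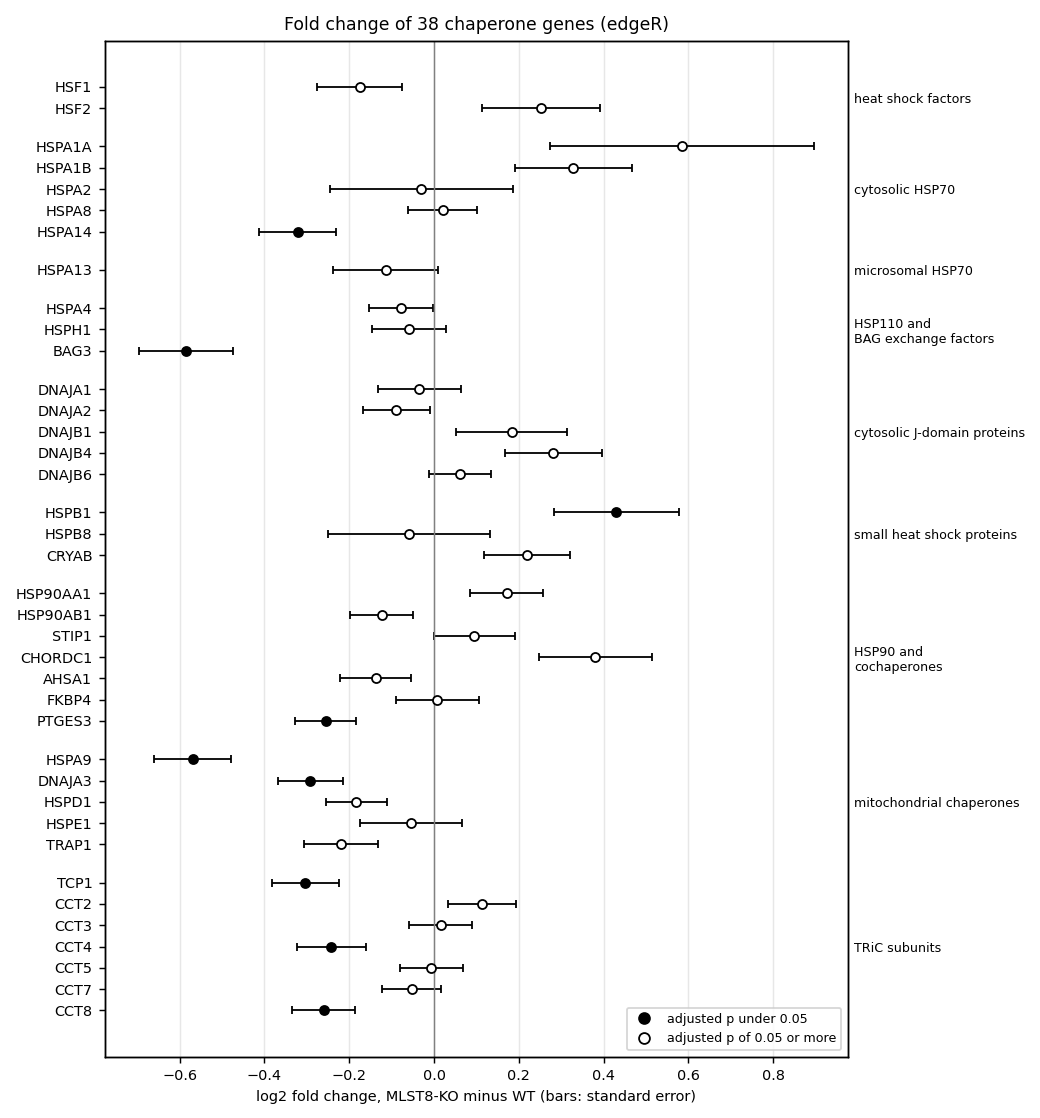
Log2 fold change of each chaperone gene (MLST8-KO minus WT, n = 3 each; bars, standard error; filled points, edgeR adjusted p under 0.05), grouped by role. BAG3 and HSPA9 lie farthest to the left near -0.58, HSPB1 is the only filled point to the right, and HSPA1A has the widest error.

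The transcription factors of the response came first. HSF1, which carries the heat shock response, had 1733, 1648 and 1881 counts in the WT samples and 1635, 1593 and 1853 counts in the MLST8-KO samples. These ranges overlapped. Its level was 121 ± 12.4 CPM in WT and 108 ± 10.3 CPM in MLST8-KO cells (log2 fold change -0.18, SE 0.10, edgeR adjusted p = 0.201). HSF2, a related factor that can pair with HSF1, was near 6 TPM and every MLST8-KO sample was above every WT sample in CPM, but the test did not pass (log2 fold change 0.25, SE 0.14, edgeR adjusted p = 0.185).

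Among the cytosolic HSP70 genes, only HSPA14 was a DEG. HSPA8 is the most abundant HSP70 transcript of these cells. It had 50529, 47614 and 43106 counts in WT samples and 53636, 48938 and 53047 counts in MLST8-KO samples. With the library scaling the groups overlapped, at 3247 ± 124 CPM in WT and 3293 ± 236 CPM in MLST8-KO cells (log2 fold change 0.02, SE 0.08, edgeR adjusted p = 0.863). HSPA14, a ribosome-associated HSP70 that binds newly made chains, had 1111, 1178 and 1258 counts in WT samples and 1001, 1093 and 1007 counts in MLST8-KO samples. After scaling every MLST8-KO sample was below every WT sample, 65.5 ± 1.73 against 81.9 ± 8.56 CPM (log2 fold change -0.32, SE 0.09, edgeR adjusted p = 0.0239). This call held without WT replicate 1 (adjusted p = 0.00445) and was lost when any other sample was left out (edgeR adjusted p = 0.0566 to 0.0883), as well as with limma on log2(TPM + 0.1) (adjusted p = 0.0506).

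The stress-inducible genes HSPA1A (chr6:31815464-31817946) and HSPA1B (chr6:31827735-31830255) are neighbouring copies. Of the stretches of 50 bases in the HSPA1A transcript, 72.6% also occur in HSPA1B, and both genes have estimated counts that are not whole, so the split of reads between them is uncertain. Counts that are not whole also occurred in HSP90AA1, HSPE1, TRAP1 and TCP1, so the origin of some of their reads is uncertain too. HSPA1B was assigned 22675, 16343 and 16057 counts in WT samples and 26610, 20983 and 27224 counts in MLST8-KO samples. WT replicate 1 lay within the knockout range, and the test did not pass (1263 ± 210 against 1585 ± 251 CPM, log2 fold change 0.33, SE 0.14, edgeR adjusted p = 0.0905). HSPA1A was assigned 130, 125 and 126 counts in WT samples and 320, 111 and 188 counts in MLST8-KO samples. Its knockout samples fell on both sides of the WT samples (log2 fold change 0.58, SE 0.31, edgeR adjusted p = 0.171). HSPA1B passed the threshold without WT replicate 1 and without MLST8-KO replicate 2, and HSPA1A passed without MLST8-KO replicate 2. Without MLST8-KO replicate 1, the log2 fold change of HSPA1A was only 0.11 (edgeR adjusted p = 0.768). That sample also had the highest share of the liver markers described above, and their part in this result was not tested. Summed and set against HSPA8 in TPM, the inducible pair stood at 0.427, 0.335 and 0.365 in WT samples and 0.481, 0.413 and 0.491 in MLST8-KO samples. The ranges overlapped (0.376 ± 0.047 against 0.462 ± 0.042, exact permutation test, two-sided p = 0.2, adjusted over 3 ratios 0.3, where 0.1 is the smallest p that 3 against 3 samples allow). The testis-type HSPA2 and the microsomal HSPA13 had log2 fold changes of -0.03 and -0.11, with overlapping samples.

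BAG3 was the largest fall of the chaperone genes together with HSPA9. BAG3 (chr10:119651370-119677819) is an exchange factor that links HSP70 to small heat shock proteins and to the autophagy of damaged proteins, and it is a known HSF1 target. Its counts were 2537, 2286 and 2602 in WT samples and 1666, 1649 and 2076 in MLST8-KO samples. Every knockout sample was below every WT sample, although MLST8-KO replicate 3 stood nearer to WT than the other 2. The level fell from 171 ± 15.4 to 114 ± 16.6 CPM (log2 fold change -0.58, SE 0.11, edgeR adjusted p = 0.0057). The same call was made in all 8 other settings and in all 6 fits that left out a sample, where the highest edgeR adjusted p was 0.0334. The exchange factors of the HSP110 family, HSPA4 and HSPH1, had log2 fold changes of -0.08 and -0.06 and overlapping samples. BAG2, another BAG protein that binds HSP70 and is not one of the 38 genes, rose over the same samples, from 268, 190 and 165 counts in WT to 365, 416 and 318 counts in MLST8-KO samples (log2 fold change 0.70, SE 0.16, edgeR adjusted p = 0.00977). In TPM there were 7.43, 9.47 and 12.4 BAG3 transcripts per BAG2 transcript in WT samples and 3.59, 3.12 and 5.10 in MLST8-KO samples. This ratio was chosen after its values were seen and was given no test.

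None of the 5 cytosolic J-domain protein genes was a DEG, beside 16.3% higher and 15.7% lower DEGs among all genes tested. DNAJB1, the stress-inducible partner of HSPA1A, and DNAJB4, its close relative, had log2 fold changes of 0.18 (edgeR adjusted p = 0.302) and 0.28 (edgeR adjusted p = 0.0813). DNAJB4 lay above every WT sample in all MLST8-KO samples, at 103, 92.0 and 92.8 against 90.7, 80.1 and 65.7 CPM. DNAJA1 and DNAJA2, farnesylated partners of HSPA8, had log2 fold changes of -0.03 and -0.09, and DNAJB6, which blocks aggregation of polyglutamine proteins, had 0.06.

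HSPB1 was the only one of the 38 genes that was a higher DEG. HSPB1 (chr7:76302544-76304295) had 20098, 14360 and 11395 counts in WT samples and 22095, 21472 and 23188 counts in MLST8-KO samples. The knockout samples lay close together, whereas the WT samples were spread out, and WT replicate 1 at 1333 CPM lay inside the knockout range of 1326 to 1485 CPM. The mean rose from 1048 ± 261 to 1412 ± 80 CPM (log2 fold change 0.43, SE 0.15, edgeR adjusted p = 0.0476). Leaving out WT replicate 1 raised the log2 fold change to 0.64 (edgeR adjusted p = 0.000399). Without any one of the other samples the call was lost (edgeR adjusted p = 0.0821 to 0.156), with a log2 fold change of 0.28 in the absence of WT replicate 3. The squamous marker share described above had the same order of samples in WT. That share, which is not TMM-scaled, was higher in every knockout sample than in any WT sample. Its part in the HSPB1 result was not tested. CRYAB, a small heat shock protein that forms oligomers with HSPB1, lies against HSPB2 on the other strand, and reads shared where the genes overlap cannot be told apart. HSPB2 was assigned only 2, 3 and 1 counts in WT and 7, 0 and 0 counts in MLST8-KO samples. The counts of both genes were whole in every sample, so no split of shared reads shows in them. CRYAB had 3391, 2648 and 2549 counts in WT and 3876, 3645 and 3333 counts in MLST8-KO samples. It did not pass the threshold (log2 fold change 0.22, SE 0.10, edgeR adjusted p = 0.118). HSPB8, which works with BAG3, varied more within groups than between them (19.6 ± 4.21 against 18.8 ± 4.66 CPM, log2 fold change -0.06, edgeR adjusted p = 0.827). The 3 small heat shock proteins together summed to 3812, 2800 and 2333 TPM in WT samples and 4255, 4116 and 4259 TPM in MLST8-KO samples, most of it HSPB1.

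The WT samples differed among themselves, with replicates 1 and 3 at the ends more often than replicate 2. WT replicate 1 was the highest WT sample in CPM for 20 of the 38 genes (52.6%), beside 38.3% of all genes tested, and WT replicate 3 was the lowest for 17 (44.7%), beside 39.2%. In 9 genes (23.7%) every MLST8-KO sample was above WT replicates 2 and 3, which was so for 32.6% of all genes, and in 3 of the 9, HSF2, DNAJB4 and CHORDC1, also above WT replicate 1. The other 6 were HSPA1B, DNAJB1, HSPB1, CRYAB, HSP90AA1 and CCT2. Without WT replicate 1, 6 chaperone genes were higher DEGs (HSPA1B, DNAJB1, DNAJB4, HSPB1, CRYAB and CHORDC1) and 8 lower, beside 20.5% and 20.2% of the 13102 genes tested in that fit. Fits that left out any of the other samples had fewer calls over all genes than the fit of all samples, and 0 to 2 of the 38 genes were higher in them.

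**Figure D3:**
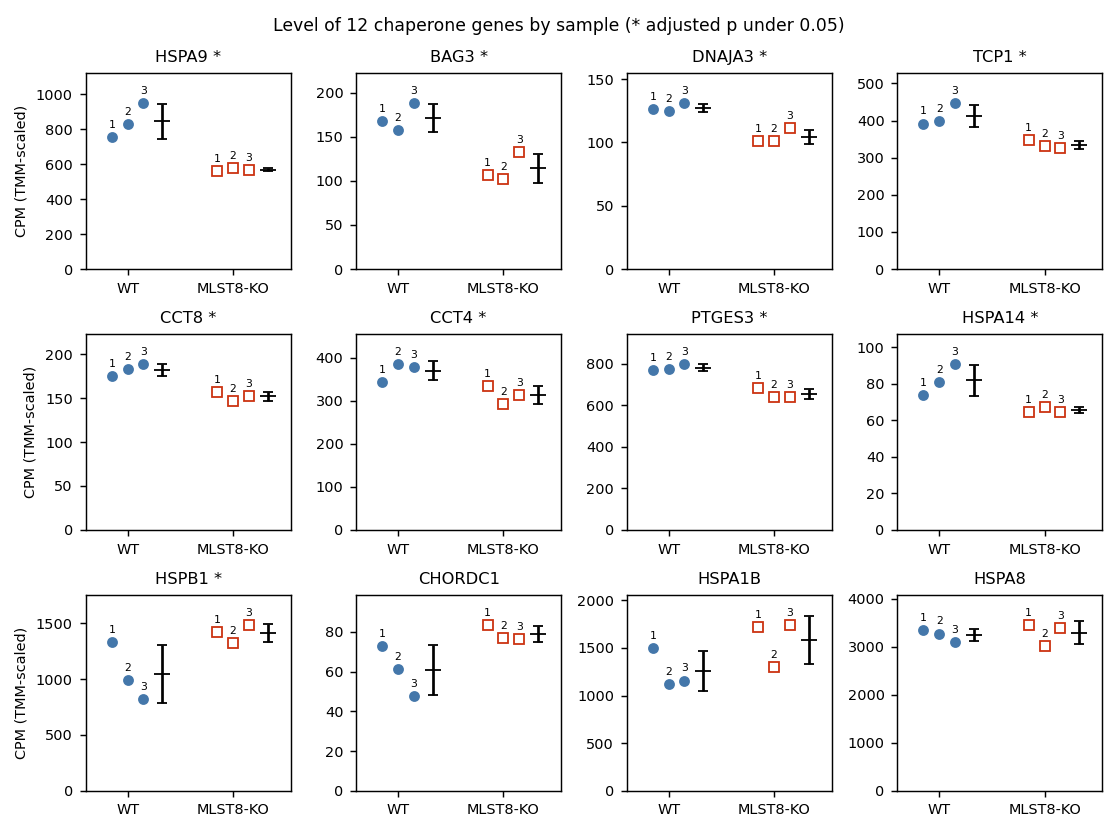
Level of 12 chaperone genes in each sample, in CPM after TMM scaling (filled blue circles, WT; open red squares, MLST8-KO; numbers, replicate; black bars, mean ± SD of 3 samples; axes start at 0). HSPA9 and BAG3 separate the groups most clearly, and for HSPB1 and HSPA1B the sample WT 1 lies among the knockout samples.

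HSP90 and its cochaperones showed 1 lower DEG among 7 genes (14.3%, beside 15.7% of all genes tested). HSP90AA1, the inducible cytosolic HSP90, had 40704, 35549 and 32559 counts in WT samples and 46933, 43497 and 42553 counts in MLST8-KO samples. After scaling, WT replicate 1 at 2700 CPM lay within the knockout range of 2687 to 3028 CPM, and the test did not pass (log2 fold change 0.17, SE 0.09, edgeR adjusted p = 0.149). HSP90AB1, the constitutive form, had 24501, 22700 and 22561 counts in WT samples and 23025, 22628 and 24026 counts in MLST8-KO samples. In CPM every knockout sample was below every WT sample, 1474 ± 71.0 against 1605 ± 36.6 CPM, and again the test did not pass (log2 fold change -0.12, SE 0.07, edgeR adjusted p = 0.223). The ratio of the inducible to the constitutive HSP90 transcript does not depend on library scaling. In TPM it was 1.31, 1.24 and 1.14 in WT samples and 1.62, 1.52 and 1.40 in MLST8-KO samples. All knockout ratios were above all WT ratios (1.51 ± 0.11 against 1.23 ± 0.09, exact permutation test, two-sided p = 0.1, the smallest that 3 against 3 samples allow, adjusted over 3 ratios 0.3).

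PTGES3 encodes p23, the cochaperone that steadies the closed form of HSP90. It had 11593, 11302 and 11082 counts in WT samples and 10581, 10400 and 10024 counts in MLST8-KO samples, with no overlap. The level fell from 782 ± 15.7 to 656 ± 23.4 CPM (log2 fold change -0.26, SE 0.07, edgeR adjusted p = 0.0231). The call was lost without WT replicate 2 or any one MLST8-KO sample (edgeR adjusted p = 0.0589 to 0.0817), with upper quartile scaling (adjusted p = 0.058) and with limma on log2(TPM + 1) (adjusted p = 0.146). CHORDC1, an HSP90 cochaperone with zinc-binding CHORD domains, missed the threshold in the other direction (1095, 893 and 658 against 1294, 1245 and 1190 counts, log2 fold change 0.38, SE 0.13, edgeR adjusted p = 0.0508). It passed in 7 of the 8 other settings, and of the fits that left out a sample it passed in the one without WT replicate 1. STIP1, which joins HSP70 to HSP90, had a log2 fold change of 0.09. AHSA1, which speeds the HSP90 ATPase, had -0.14, and FKBP4, a steroid receptor cochaperone, had 0.01. All 3 had overlapping samples.

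The largest change among the mitochondrial chaperone genes was in HSPA9. HSPA9 (chr5:138553756-138575724), the mitochondrial HSP70 also called mortalin, had 11387, 12047 and 13161 counts in WT samples and 8722, 9361 and 8867 counts in MLST8-KO samples. The knockout samples lay within a narrow range below all WT samples, with WT replicate 1 the lowest WT sample. The level fell from 845 ± 98.0 to 570 ± 7.93 CPM (log2 fold change -0.57, SE 0.09, edgeR adjusted p = 0.00362). HSPA9 passed in all 8 other settings and in all 6 fits that left out a sample, where its log2 fold change ran from -0.64 to -0.48 and its highest edgeR adjusted p was 0.024. DNAJA3, the J-domain partner of HSPA9, had 1898, 1822 and 1817 counts in WT samples and 1558, 1639 and 1729 counts in MLST8-KO samples, without overlap (log2 fold change -0.29, SE 0.08, edgeR adjusted p = 0.0179). Its call was lost without WT replicate 2, MLST8-KO replicate 1 or MLST8-KO replicate 2 (edgeR adjusted p = 0.062 to 0.0832) and with limma on log2(TPM + 1) (adjusted p = 0.0671).

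The chaperonin of mitochondria did not pass the test. HSPD1, the ring-forming HSP60, had 7704, 7226 and 6670 counts in WT samples and 6947, 6788 and 6946 counts in MLST8-KO samples. In CPM all knockout samples were below all WT samples (437 ± 15.8 against 497 ± 14.9 CPM, log2 fold change -0.18, SE 0.07, edgeR adjusted p = 0.0751). HSPE1, its lid, is transcribed in the opposite direction from the neighbouring start and also overlaps the read-through gene HSPE1-MOB4. It had 1399, 1406 and 1509 counts in WT samples and 1724, 1279 and 1520 counts in MLST8-KO samples, and the groups overlapped (log2 fold change -0.05, SE 0.12, edgeR adjusted p = 0.754). The ratio of HSPD1 to HSPE1 in TPM was 1.85 ± 0.19 in WT and 1.70 ± 0.22 in MLST8-KO cells, with overlap (exact permutation test, two-sided p = 0.5, adjusted over 3 ratios 0.5). TRAP1, the mitochondrial HSP90, lay below all WT samples in all knockout samples in CPM (log2 fold change -0.22, SE 0.09, edgeR adjusted p = 0.0757). In TPM its groups overlapped, at 136, 131 and 132 in WT samples and 120, 116 and 133 in MLST8-KO samples. Taking the 5 mitochondrial genes together, summed TPM was 1268, 1300 and 1336 in WT samples and 1184, 1113 and 1140 in MLST8-KO samples, with HSPA9 at 448 TPM on average in WT and 326 TPM in MLST8-KO cells. Against cytosolic HSPA8, HSPA9 stood at 0.150, 0.173 and 0.209 transcripts in WT samples and 0.110, 0.129 and 0.112 in MLST8-KO samples. Against HSPD1 it stood at 0.952, 1.08 and 1.28 in WT samples and 0.813, 0.890 and 0.824 in MLST8-KO samples. Both ratios are in TPM, separated the groups, were chosen after their values were seen, and were given no test.

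Of the 7 listed TRiC subunits, 3 were lower DEGs (42.9%, beside 15.7% of all genes tested) and 4 did not pass the threshold. The group is small, and its count was not tested against that share. TCP1 (chr6:159778498-159789749), the subunit also called CCT1, had 5915, 5816 and 6201 counts in WT samples and 5383, 5352 and 5098 counts in MLST8-KO samples, without overlap (413 ± 29.7 against 335 ± 11.0 CPM, log2 fold change -0.30, SE 0.08, edgeR adjusted p = 0.0174). CCT8 (chr21:29055805-29073797) had 2632, 2663 and 2614 counts in WT samples and 2435, 2386 and 2372 counts in MLST8-KO samples, again without overlap (log2 fold change -0.26, SE 0.07, edgeR adjusted p = 0.0235). CCT4 (chr2:61868089-61888804) had 5192, 5594 and 5244 counts in WT samples and 5155, 4723 and 4884 counts in MLST8-KO samples (log2 fold change -0.24, SE 0.08, edgeR adjusted p = 0.0458). Leaving out WT replicate 2 or any MLST8-KO sample ended the calls of TCP1 (edgeR adjusted p = 0.051 to 0.0593) and CCT8 (edgeR adjusted p = 0.0571 to 0.0893). The CCT4 call held only without WT replicate 1 and was otherwise lost (edgeR adjusted p = 0.0705 to 0.168). All 3 were lost with limma on log2(TPM + 1) (adjusted p = 0.0732 to 0.212), and CCT8 and CCT4 also with upper quartile scaling (adjusted p = 0.0544 and 0.107), and CCT4 also with no filter (adjusted p = 0.0509). CCT2, CCT3, CCT5 and CCT7 were not DEGs, with log2 fold changes of 0.11, 0.02, -0.01 and -0.05. The remaining subunit CCT6A, named here after its values were seen, had a log2 fold change of -0.26 (SE 0.09, edgeR adjusted p = 0.0494), and its call was lost in 5 of 6 fits that left out a sample.

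Since 1 copy of each subunit is needed per TRiC ring, the make-up of the subunit transcripts was also given as each subunit's share of the summed TPM of all 8, which does not depend on library scaling. This measure was chosen after the fold changes were seen and was given no test. TCP1 made up 11.1%, 11.3% and 12.1% of the sum in WT samples and 10.2%, 10.3% and 9.78% in MLST8-KO samples. CCT8 made up 6.28% ± 0.15 in WT and 5.68% ± 0.03 in MLST8-KO cells, also without overlap. The shares of CCT2 (7.82% ± 0.64 against 9.14% ± 0.24), CCT3 (16.7% ± 0.70 against 18.3% ± 0.51) and CCT5 (14.3% ± 0.88 against 15.4% ± 0.29) were higher in all knockout samples. CCT4, CCT6A and CCT7 overlapped or touched between the groups. Shares of a sum move against each other, so a higher share need not mean a higher level. CCT2, CCT3 and CCT5 were not DEGs, with log2 fold changes of 0.11, 0.02 and -0.01. The summed level of the 7 listed subunits was 2299, 2275 and 2225 TPM in WT and 2373, 2283 and 2262 TPM in MLST8-KO samples, which overlap.

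**Figure D4:**
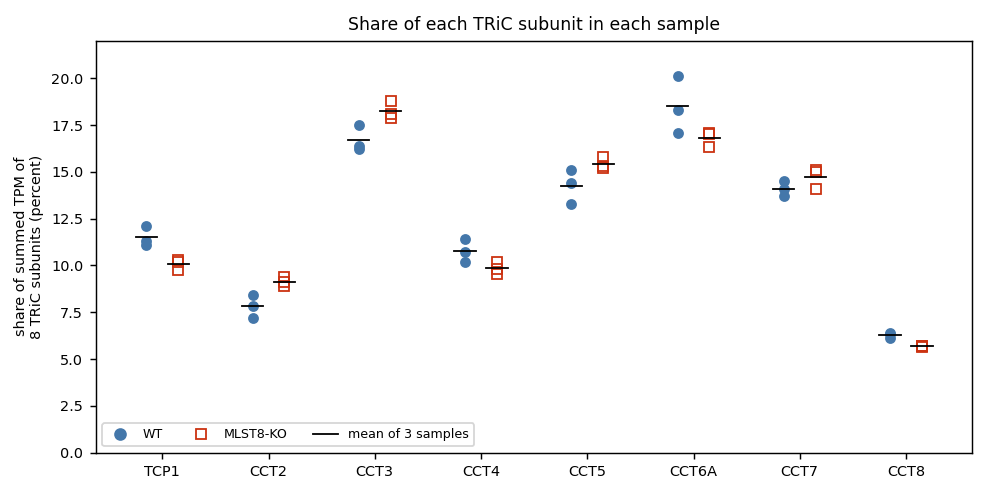
Share of each TRiC subunit in the summed TPM of the 8 subunits, in percent, with each sample as a point (filled blue circles, WT; open red squares, MLST8-KO) and the mean of 3 samples as a line. The shares of TCP1 and CCT8 lie lower and those of CCT2, CCT3 and CCT5 higher in all MLST8-KO samples. A higher share need not mean a higher level.

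The genes with the HSF1-binding letters were set beside the rest. None of the 7 genes with the motif of 3 repeats was a DEG, and their log2 fold changes ran from -0.18 to 0.38 with a median of 0.02. The 27 matched genes without it held 1 higher and 7 lower DEGs and had a median of -0.06. Of the 14 genes with the motif of 2 repeats, HSPB1 was higher and TCP1 lower. Of all genes tested, 16.3% were higher and 15.7% lower DEGs. These groups are small, and their counts were not tested against those shares or against each other. A match says only that the letters occur in the window, and the lack of one says only that these exact letters do not. The 27 genes without the motif of 3 repeats were not shown to lack HSF1 binding. They include BAG3, a known HSF1 target, and the stress-inducible HSPA1A, HSPA1B and DNAJB1.

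The rest of the chaperone network was read from a second list of 87 genes, of which 84 were listed and 78 tested. Of these, 9 were higher DEGs (11.5%) and 13 lower (16.7%), beside 16.3% and 15.7% of all genes, and the median log2 fold change was -0.02. Among the rises, DNAJB5, a J-domain protein, had 68, 52 and 52 counts in WT samples and 144, 126 and 107 counts in MLST8-KO samples (log2 fold change 1.01, SE 0.18, edgeR adjusted p = 0.00464). FKBP5, an HSP90 cochaperone that damps glucocorticoid receptor and AKT signaling, had 110, 96 and 45 counts in WT samples and 153, 200 and 172 counts in MLST8-KO samples (log2 fold change 0.95, SE 0.24, edgeR adjusted p = 0.0169). HSPB3, a small heat shock protein known from muscle, and HSPA4L, an HSP110 protein, had log2 fold changes of 0.78 (SE 0.21, edgeR adjusted p = 0.0199) and 0.78 (SE 0.19, edgeR adjusted p = 0.0138). FKBP5 lost its call without MLST8-KO replicate 2 or 3 (edgeR adjusted p = 0.0694 and 0.0517) and HSPA4L without MLST8-KO replicate 1 or 2 (edgeR adjusted p = 0.055 and 0.0556). HSPB3 lost its call without WT replicate 2, MLST8-KO replicate 2 or MLST8-KO replicate 3 (edgeR adjusted p = 0.0512 to 0.0845). Together with BAG2, these 4 genes were the largest rises of the list among genes with a mean of at least 50 counts.

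Falls in the second list included some partners of HSPA9 but not all. The partners TIMM44, DNAJC19 and HSCB, named after their values were seen, were not DEGs. Their log2 fold changes were 0.04, 0.01 and -0.28 (edgeR adjusted p = 0.769, 0.932 and 0.199). GRPEL1, the nucleotide exchange factor of HSPA9, had 1341, 1439 and 1461 counts in WT samples and 1051, 1068 and 1180 counts in MLST8-KO samples (log2 fold change -0.49, SE 0.09, edgeR adjusted p = 0.00561). Its paralog GRPEL2, named after its values were seen, had a log2 fold change of -0.32 (SE 0.08, edgeR adjusted p = 0.015). The GRPEL2 call was lost in 1 fit that left out a sample (edgeR adjusted p = 0.0548). TOMM70, the outer-membrane receptor that takes precursors from HSP70 and HSP90, had 2690, 2937 and 2898 counts in WT samples and 2293, 2360 and 2227 counts in MLST8-KO samples (log2 fold change -0.44, SE 0.08, edgeR adjusted p = 0.00559). CLPB, a disaggregase of the space between the mitochondrial membranes, had 426, 455 and 517 counts in WT samples and 307, 379 and 325 counts in MLST8-KO samples (log2 fold change -0.60, SE 0.12, edgeR adjusted p = 0.00736). GRPEL1, TOMM70 and CLPB kept their calls in every fit that left out a sample. The other 2 of the 5 largest falls were HSPA1L, a copy of HSPA1A expressed in testis, with a log2 fold change of -0.97 (SE 0.21, 35 to 81 counts per sample), and CDC37L1, a relative of the kinase cochaperone CDC37, with -0.42 (SE 0.11). CDC37L1 lost its call without WT replicate 2, MLST8-KO replicate 2 or MLST8-KO replicate 3 (edgeR adjusted p = 0.0676 to 0.0695). Of the 13 tested genes listed as other mitochondrial chaperones and proteases, 4 were lower DEGs (30.8%) and 0 higher (median log2 fold change -0.17). Of 8 other exchange factors 3 were lower, GRPEL1 and GRPEL2 among them, and 1 higher. Over all genes tested, 15.7% were lower and 16.3% higher DEGs, and these small groups were not tested against those shares.

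How far the calls depend on the processing differed between genes. BAG3 and HSPA9 were the only chaperone genes of the 38 called in all 14 alternative fits. HSPB1 was called in all 8 other settings but in only 1 of the 6 fits that left out a sample. With values in TPM, HSPA1B, DNAJB4, CRYAB, HSP90AA1 and CHORDC1 were called higher beside HSPB1, while of the 8 falls HSPA14, BAG3 and HSPA9 remained called with log2(TPM + 1), and BAG3 and HSPA9 with log2(TPM + 0.1).

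**Figure D5:**
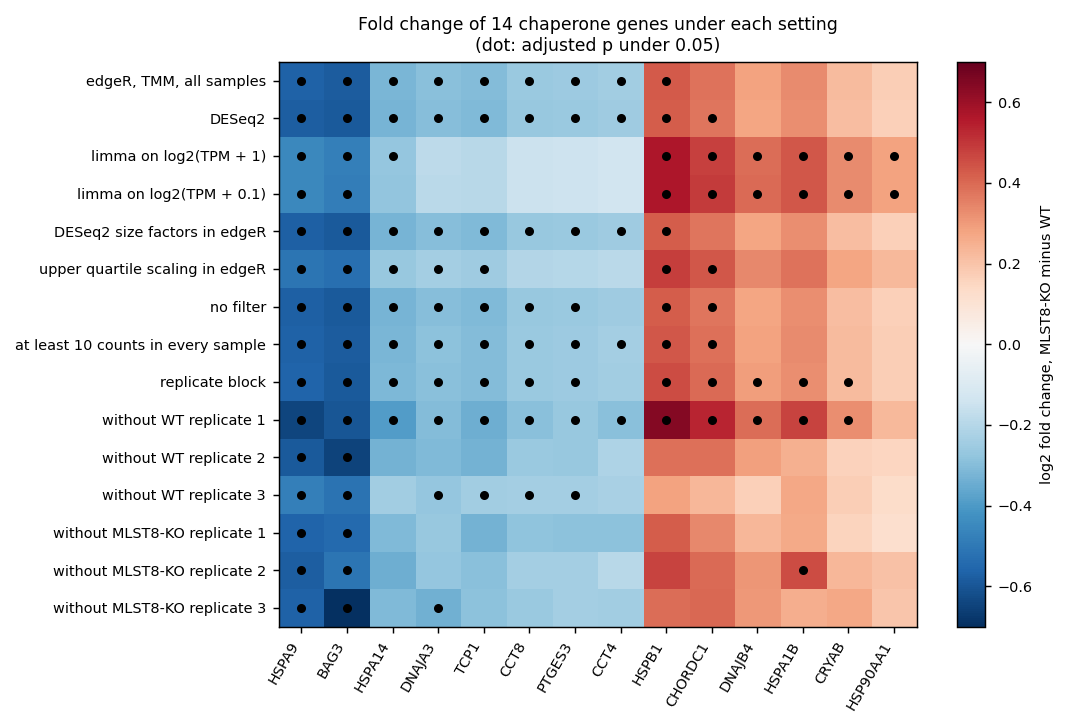
Log2 fold change (color; blue, lower, and red, higher in MLST8-KO) of 14 chaperone genes in the main fit and 14 alternatives, with a dot where the adjusted p was under 0.05. The columns of HSPA9 and BAG3 carry a dot in every row, and the columns to the right of HSPB1 gain dots with TPM values and without WT replicate 1.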

How the data were processed

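RNA-seq of HCC2814 cells covered 3 WT and 3 MLST8-KO samples, grouped from their labels. Libraries were made by polyA selection. After read filtering, the authors used HISAT for the genome (GRCh38.p12) and BowTie2 for the genes, with versions not given in the sources used here. Per gene, the authors deposited estimated counts (expected counts, not normalized), TPM and FPKM, and the deposited FPKM values were used only as a check of ratios. The authors' own comparisons (fold changes, p and q) form a further table that was left out.

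Because 12.4% of the estimated counts were not whole, they were rounded, which the design had allowed for. edgeR 4.0.16 in R 4.3.3 (TMM, filterByExpr, glmQLFit, glmQLFTest, no replicate block) was fitted on 12951 genes with Benjamini-Hochberg adjustment and a threshold of 0.05. The SE is the size of the log2 fold change over the square root of F. The alternatives tried were a replicate block, DESeq2 1.42.0, its size factors in edgeR, upper quartile scaling, limma 3.58.1 on log2(TPM + 1) and log2(TPM + 0.1), a minimum of 10 counts per sample, no filter, summed HSPA1A and HSPA1B, and each sample left out. A fold change on log2(TPM + pseudocount) understates that of low genes. Ratios of TPM were compared by exact permutation.

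Totals of 14381673 to 15744154 counts mean that 3 counts, the limit a count of 0 allows, equal 0.185 to 0.216 CPM (counting error only). No pair of replicates agreed within sampling noise (chi-square 6.77 to 26.2 per gene), so each counted as a sample. On simulated data for this comparison (12951 genes, 200 with a log2 fold change of 1 in size), edgeR found 91% of the altered genes, and 4.71% of its calls were wrong. The data held 2116 higher and 2030 lower DEGs, and the chaperone DEGs had log2 fold changes of 0.24 to 0.58 in size. The simulated shares therefore do not carry over to the chaperone calls.

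The 38 genes and all lists were chosen with earlier results of these data known. Named in full were the DEGs and HSF1, HSPA1A, HSPA1B, HSPA8, HSP90AA1, HSP90AB1, HSPD1 and HSPE1, and of the second list the 5 largest rises and 5 largest falls that were DEGs and averaged 50 counts or more. CCT6A, GRPEL2, TIMM44, DNAJC19 and HSCB were named after their values were seen. Gene positions are from GENCODE v29 (GRCh38), and promoter sequences from RefSeq (GRCh38.p14). Figures were drawn with matplotlib 3.10.9.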

Additional observations from a re-analysis of the deposited data

How the results depend on the processing

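Against 1 higher and 8 lower chaperone DEGs with edgeR, DESeq2, the lack of a filter and a minimum of 10 counts per sample each gave 2 higher. The replicate block gave 5 higher and 7 lower (2261 and 2157 over all genes), adding HSPA1B, DNAJB4, CRYAB and CHORDC1 and losing CCT4. Sample numbers were not shown to pair the samples, since deviations of same-numbered samples correlated at 0.083, 0.126 and 0.199, although each sample correlated best with its own number. Upper quartile scaling gave 2 higher and 5 lower, limma on log2(TPM + 1) 6 and 3, and limma on log2(TPM + 0.1) 6 and 2. Leaving out 1 sample gave 0 to 6 higher and 2 to 8 lower, with 971 to 2692 higher and 850 to 2651 lower over all genes. For the second list, with 9 higher and 13 lower, both limma settings gave 4 lower, and leaving out 1 sample gave 3 to 10 higher and 5 to 16 lower. DESeq2 size factors and summing HSPA1A with HSPA1B moved no count by over 1.5 times. MLST8 was called in every alternative, and the 3 tested ratios kept their direction, while the other ratios had no alternative run. Log2 fold changes near 0 changed sign with limma on log2(TPM + 1) and log2(TPM + 0.1), respectively, in HSPA2 (0.0601, 0.0851), HSPA13 (0.0049, 0.0056), HSPA4 (0.0283, 0.0285), HSPH1 (0.0579, 0.0582), DNAJA1 (0.0755, 0.0757), DNAJA2 (0.0194, 0.0196), HSPB8 (0.0410, 0.0425), HSPE1 (0.0422, 0.0423), CCT5 (0.109, 0.109) and CCT7 (0.0550, 0.0552), and with upper quartile scaling in HSPA2 (0.0229), DNAJA1 (0.0187), HSPE1 (0.0030), CCT5 (0.0485) and CCT7 (0.0015). Leaving out 1 sample did so in HSPA2 (-0.149 to 0.138), HSPA8 (-0.0161 to 0.0787), HSPA13 (-0.237 to 0.0035), HSPH1 (-0.122 to 0.0131), DNAJA1 (-0.118 to 0.0377), HSPB8 (-0.280 to 0.127), FKBP4 (-0.0650 to 0.0796), HSPE1 (-0.174 to 0.0680), CCT3 (-0.0199 to 0.0461) and CCT5 (-0.0405 to 0.0244). The cause was not tested. No chaperone DEG had a log2 fold change smaller than 0.24 in size, and the lowest member, HSPA2, with 41 to 61 counts per sample, had an SE of 0.22.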
